A study of Mus musculus with 4 samples.

Results

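Marker-low cells were the LSK cells (Lineage-negative, Sca-1-positive, cKit-positive bone marrow cells) in which few marker genes of stem cells, neutrophils, megakaryocyte-erythroid cells or lymphocytes were detected 9 days after a dose of 5-fluorouracil (5-FU). They were chosen by detection of 25 genes in 4 gates. A cell was kept with a UMI (unique molecular identifier, 1 counted RNA molecule) of under 3 of the 9 stem genes Mecom, Hlf, Procr, Mmrn1, Clec1a, Pdzk1ip1, Fgd5, Gng11 and Esam. It also had to show under 2 of the neutrophil genes Mpo, Elane, Ctsg, Prtn3 and Ms4a3, under 2 of the megakaryocyte-erythroid genes Pf4, Gata1, Mfsd2b, Car1 and Rhag, and under 2 of the lymphoid genes Dntt, Il7r, Rag1, Ccr9, Arpp21 and Ebf1. Of 9029 cells assigned to 1 genotype by hashtag after 5-FU, 1181 met these conditions, 773 wild-type and 408 knockout cells. They came from 12753 barcodes called as cells, and both libraries of the series held 25236 tagged cells. Levels of the 25 gate genes in these cells follow from that choice and are not findings. The gate limits how many of these genes a cell shows and not how much RNA of one, so that Prtn3, a neutrophil protease gene, kept 412 CPM (UMIs scaled to a pool total of 1e6) in wild-type and 381 in knockout marker-low cells.

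The study compared hematopoietic cells of mice with and without Sin3b, with no treatment or after stress. Its 4 samples paired gene expression with hashtag reads, once without treatment and once after 5-FU. Mice were C57BL/6. Per the study's methods, wild-type mice carried floxed Sin3b without Cre (Sin3B F/F), and in knockout mice Vav1-iCre, active in hematopoietic cells from embryonic life, had deleted Sin3b. Both genotypes of the 5-FU library had received 100 mg/kg 5-FU by intraperitoneal injection 9 days before harvest, and both genotypes of the other library none. Ages of these mice were not given in the sources used here. Cells of 2 mice per genotype were combined in each library, so that each genotype was 1 pool and no spread between mice could be measured. Which hashtag stood for which genotype was read from the study's methods. Intervals given below cover counting error only.

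Hematopoietic stem cells and the multipotent progenitors below them share the LSK surface phenotype. As progenitors become committed, they switch on genes of a lineage (granule enzymes for neutrophils, platelet and globin genes for megakaryocytes and red cells, recombination genes for lymphocytes), while genes of dormant stem cells are lost. 5-FU kills dividing cells, and the surviving stem cells then divide to rebuild the marrow. SIN3B is a scaffold protein that brings histone deacetylases to chromatin and takes part in repression of cell cycle genes in resting cells.

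The gate collected shallow barcodes along with deep ones. Marker-low cells had a median of 3865 UMIs (wild type) and 3001 UMIs (knockout), against 10045 and 12194 in the other tagged cells. Of tagged cells under 1000 UMIs, 114 of 115 wild-type (99.1%) and 81 of 81 knockout cells (100.0%) were marker-low. At 12000 UMIs or more, the shares were 2.2% (95% exact binomial interval 1.56 to 3.0) and 2.71% (2.0 to 3.59). Shallow marker-low cells held much mitochondrial RNA. Its median share was 72.6% in wild-type and 69.0% in knockout marker-low cells under 1000 UMIs, 10.9% and 26.0% from 1000 to 2000, 5.02% and 15.2% from 2000 to 4000, and 3.53% and 3.84% from 4000 to 8000. Below 4000 UMIs, where the genotypes differed in this share, its part in the genotype ratios was not tested. Of the 400 wild-type and 218 knockout marker-low cells under 4000 UMIs, 132 and 148 had more than 20% mitochondrial UMIs, while none of the 563 deeper ones did. The 373 wild-type and 190 knockout marker-low cells with at least 4000 UMIs are called deep cells, and their values stand beside the main results.

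**Figure D1:**
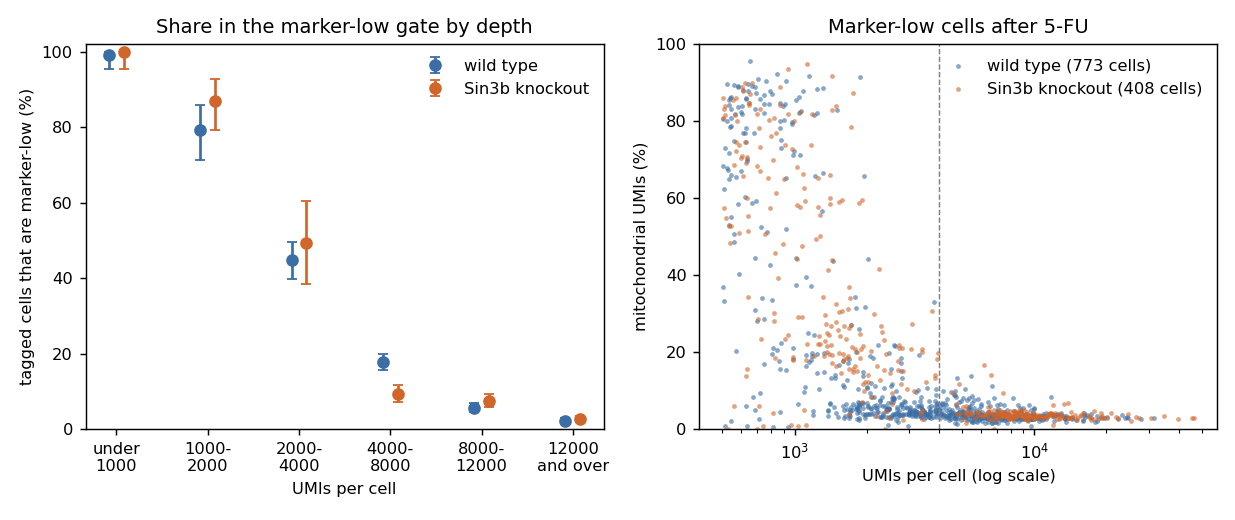
Left, share of tagged cells after 5-FU that were marker-low (%), by UMIs per cell; points are shares and bars 95% exact binomial intervals. Right, each marker-low cell by UMIs (log scale) and mitochondrial share (%), with a dashed line at 4000 UMIs. Nearly all cells under 1000 UMIs were marker-low, and cells with a high mitochondrial share lay left of the line.

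The cells nearest to the limits were deeper than those well inside. In wild type, 187 marker-low cells had no stem gate gene, 231 had 1 and 355 had 2, with median depths of 987, 3706 and 5587 UMIs. The 467 cells that met the 3 other conditions but showed 3 stem genes lay just outside, at a median of 7328 UMIs. The numbers in knockout cells were 120, 125 and 163 inside and 269 just outside. For the neutrophil gate, 258 wild-type and 74 knockout cells lay just outside with 2 genes. None of the 25 gate genes was detected in 119 wild-type cells (15.4%) and 86 knockout cells (21.1%), of which 2 and 1 were deep. Marker-low thus meant few marker genes, and seldom none in a deep cell.

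Over all depths together, marker-low cells made up a smaller share of knockout than of wild-type cells, but this order did not hold across depths. The share was 14.6% in wild type (13.6 to 15.6, 773 of 5302 cells) and 10.9% in knockout (9.96 to 12.0, 408 of 3727 cells), a difference of -3.63 percentage points (Newcombe 95% interval -5.0 to -2.24). Among cells with at least 4000 UMIs, the shares were 8.02% and 5.51%. When all such cells were thinned to 4000 UMIs before the gate was applied, 37.2% of wild-type and 35.9% of knockout cells were marker-low, and the interval of the difference (-3.34 to 0.899 points) held 0. The difference also lost its direction when a cell's tag had to hold 80% of its hashtag UMIs (0.0566 points). That rule, applied to all barcodes, kept 1123 wild-type and 944 knockout cells as marker-low. In the untreated library, where cells had at least 2921 UMIs against 500 after 5-FU, the same gate kept 11.8% of wild-type and 11.9% of knockout cells. Condition and library coincide, so a drug effect and a library effect cannot be told apart.

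Deep marker-low cells carried RNA of Kit and Ly6a, genes of the LSK sort, of Ptprc, and of Cd34, which the sort did not use. Per the study's methods the hashtag antibodies bound CD45 (wild type) and CD45.2 (knockout), both products of Ptprc. Tagged cells were thus chosen in part for that protein. Of deep wild-type cells thinned to 4000 UMIs, 57.1% had a UMI of Kit (the stem cell factor receptor of the LSK sort), 37.5% of Ly6a (Sca-1), 65.7% of Ptprc (CD45) and 68.9% of Cd34. In knockout cells these shares were 52.6%, 46.8%, 67.4% and 71.6%. In the other deep cells the shares of Kit, Ly6a and Ptprc were 58.2%, 36.8% and 63.9% in wild type and 55.3%, 39.2% and 56.7% in knockout. The share that free RNA gives in droplets was not estimated. In marker-low cells under 1000 UMIs 9.65% of wild-type and 14.8% of knockout ones had a UMI of Kit, and 10.5% and 8.64% had a UMI of Ptprc. RNA of Kit, Ly6a and Ptprc was thus detected in deep marker-low cells about as often as in the other deep cells or more often. In the shallowest barcodes it could not be checked at their depth.

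Of 9 LSK and multipotent markers, 6 lay higher in deep marker-low than in stem gate cells in both genotypes and 0 lower in both, and of 14 lymphoid markers outside the gate 6 lay higher in both and 4 lower in both. Of all 11311 genes with at least 100 UMIs in each genotype, 31.4% lay higher and 34.0% lower in both, and of the 6 lymphoid markers with that many 5 lay higher and 0 lower. Flt3 and Satb1 lay lower than in lymphoid gate cells. Flt3, a cytokine receptor that marks the most lymphoid-prone multipotent progenitors, was at 178 CPM in wild-type and 203 in knockout deep cells. Stem gate cells held 65.3 and 40.1 CPM, neutrophil gate cells 83.9 and 51.3, and lymphoid gate cells 237 and 261. Satb1, a chromatin organizer needed for lymphoid priming, was at 167 and 172 CPM, against 58.8 and 25.5 in stem gate cells and 284 and 258 in lymphoid gate cells. Cd34, a sialomucin absent from the most dormant mouse stem cells, was at 365 and 396 CPM, against 254 and 191. Cd27, a receptor of the tumor necrosis factor family found on progenitors, was at 185 CPM in wild-type cells, against 148 in stem gate cells, and also higher in knockout cells. For each of these 4 genes both genotypes had a higher level in deep marker-low than in stem gate cells.

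Of 12 stem cell markers that the gates did not use, 10 were lower in deep marker-low than in stem gate cells in both genotypes, and so were 10 of 14 megakaryocyte-erythroid markers (9 of 12 with at least 100 UMIs), beside the 34.0% of all genes. Stem gate cells were chosen for 3 or more stem genes and marker-low cells for under 3. Orders against stem gate cells, here and in the paragraph above, thus follow in part from the gates and get no test. Txnip, a redox regulator, was the 1 stem cell marker higher in both, at 814 and 793 CPM against 732 and 653. Against lymphoid gate cells, 10 of the 12 stem cell markers were higher in both genotypes, but the share of all genes was not computed for that comparison. Slamf1 (CD150, a sorting marker of long-term stem cells) was at 17.7 CPM in wild-type and 4.36 in knockout deep cells, against 32.3 and 47.1 in stem gate cells. Apoe, an apolipoprotein, was at 310 and 230 CPM, against 566 and 895. Itga2b (CD41, the platelet integrin chain) was at 35.1 and 19.9 CPM, against 64.2 and 76.1. Cd48, which rises as stem cells become progenitors, differed little, with 111 and 87.3 CPM against 105 and 75.8. Hlf, a gate gene and stem cell transcription factor, kept 486 and 501 CPM, since the gate let a cell carry it and 1 more stem gene. Gates other than marker-low could share cells, and all values are of 1 pool per genotype.

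**Figure D2:**
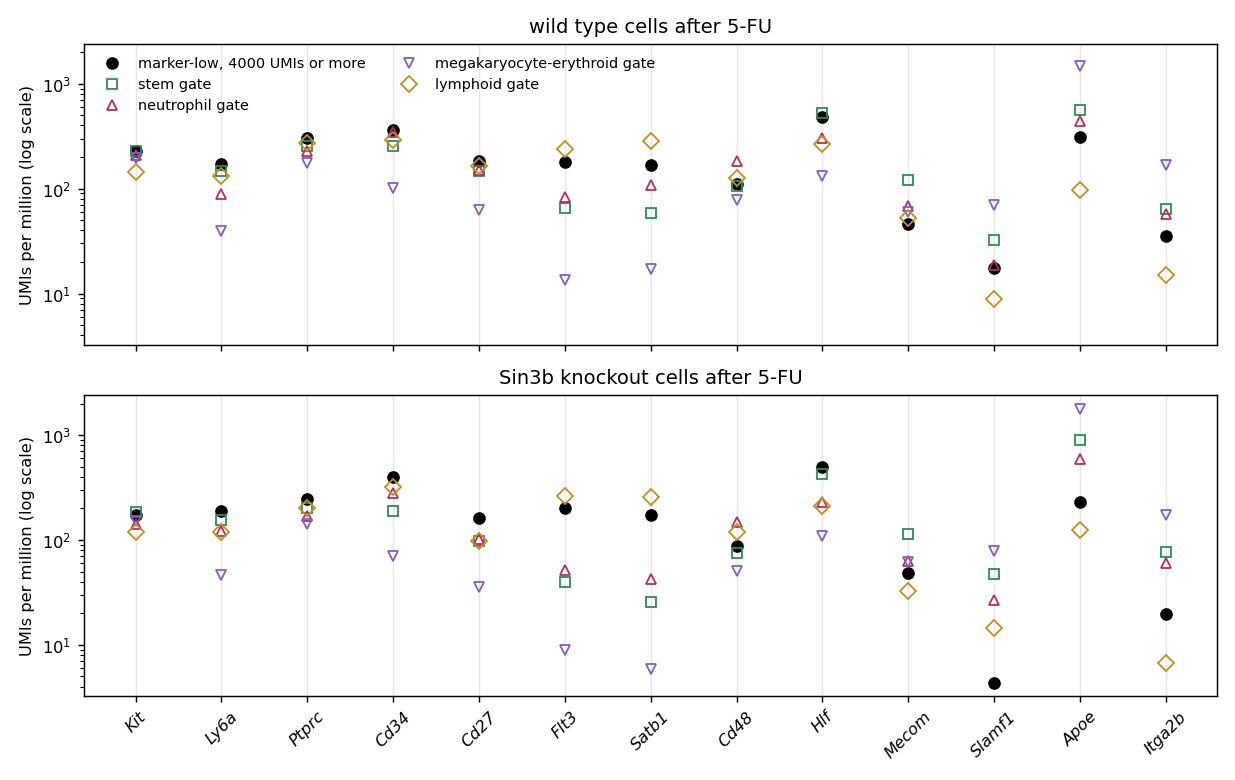
Levels (CPM, log scale) of 13 genes in deep marker-low cells (black) and in cells positive for the stem, neutrophil, megakaryocyte-erythroid or lymphoid gate, in wild-type (top) and knockout cells (bottom) after 5-FU. Each point is 1 pool. For Flt3 and Satb1 the black points lie below the lymphoid gate and above the others, and for Slamf1, Apoe and Itga2b they lie below the stem gate.

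Knockout over wild-type ratios of these progenitor genes differed in value between marker-low and other cells. In marker-low cells the log2 ratio was -0.13 for Satb1 (95% counting interval -0.32 to 0.05), 0.11 for Flt3 (-0.06 to 0.29) and 0.07 for Cd34 (-0.05 to 0.19). In the other tagged cells it was -1.23 for Satb1 (-1.31 to -1.15), -0.71 for Flt3 (-0.78 to -0.64) and -0.40 for Cd34 (-0.44 to -0.36). The intervals did not overlap, but whether the genotype difference itself differs was not tested, for want of replicate pools. Lymphoid gate cells, a small part of the other tagged cells, had close levels in wild type and knockout, as marker-low cells did. They were at 284 and 258 CPM for Satb1, 237 and 261 for Flt3 and 293 and 319 for Cd34. In the untreated marker-low cells Satb1 was at 292 and 331 CPM and Flt3 at 495 and 522.

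Apart from the gate genes, several of the genes highest in marker-low beside other cells had much of their RNA in single cells. Of 11493 genes with at least 100 UMIs per genotype, 241 were more than 1.5-fold higher and 366 lower in marker-low than in other cells of both genotypes. Both sets follow in part from the gate and get no test. Cd74, the class II invariant chain, was at 177 CPM in wild-type and 232 in knockout marker-low cells, against 37.5 and 31.6 in the others. A single cell held 48.5% of its wild-type and 37.9% of its knockout UMIs. H2-Aa and H2-Eb1, class II antigen-presenting chains, and Mpeg1, a pore protein of macrophages, were likewise led by 1 cell, with between 45% and 55.9% of the wild-type UMIs. Lgals3, a galectin of macrophages, had 38.3% of its wild-type UMIs in 1 cell.

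Other leading genes were spread over cells. Sema3d, a semaphorin, was at 24.8 and 30.3 CPM in marker-low cells and at 5.44 and 3.43 in the others, with at most 5.56% of its UMIs in 1 cell. Ccl3, a chemokine of myeloid cells, was at 61.0 and 54.7 CPM against 17.2 and 9.93. Cd33, a sialic acid-binding receptor of myeloid progenitors, was at 21.3 and 24.4 CPM against 6.08 and 5.19. The long noncoding genes Gm32554 and 1700003C15Rik completed the 10 highest. Among the 10 lowest, Igll1 and Vpreb3, surrogate light chain genes of B cell precursors, had 0 and 4 UMIs among wild-type and 1 and 3 among knockout marker-low cells, against 736 and 1167 in the other wild-type and 252 and 342 in the other knockout cells. Igll1 was thus at least 16.7-fold lower in wild-type marker-low cells, against a floor of 3 counts in that pool. Cdc42ep5, an effector of the GTPase CDC42, had no UMI in either genotype and was at least 2.72-fold lower in wild type and at least 3.84-fold lower in knockout. Neo1, a receptor of netrins, had 1 UMI in each genotype against 210 and 209 UMIs in the other cells. Gm37035, Tent5c, Ccl17, Smtnl1, Adamtsl5 and 1700016F12Rik completed the 10 lowest, with 0 to 4 UMIs in each genotype.

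Of markers of mature cells outside the LSK sort, the macrophage, T and B cell markers lay mostly in shallow barcodes, while mast cell and endothelial markers did not. The 5 macrophage genes C1qa, C1qb, C1qc, Adgre1 and Vcam1 summed to 31.3 CPM in wild-type marker-low cells, with a log2 ratio of knockout over wild type of 0.52 (0.13 to 0.92), but to 2.38 and 1.45 CPM in deep ones. The 5 T and B cell genes summed to 2.16 and 9.25 CPM and, in deep cells, to 0.681 and 0.485. The 6 endothelial and stromal genes summed to 4.05 and 2.52 CPM, and to 4.43 and 2.91 in deep cells. The 5 mast cell and basophil genes summed to 39.1 and 13.0 CPM, and to 45.3 and 11.6 in deep cells. Of these, Cpa3, a mast cell protease, was the 1 gene with 100 or more UMIs. The other tagged cells held 43.7 and 30.5 CPM of the mast cell and basophil genes, with Cpa3 at 27.8 and 21.0. Their macrophage genes summed to 2.72 and 4.41 CPM, T and B cell genes to 1.58 and 0.833, and endothelial and stromal genes to 5.34 and 5.87. The part of such RNA in the genotype ratios below was not tested, and ratios in deep cells stand beside them.

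In the comparison of genotypes, Sin3b was checked before other genes. Its level was 93.4 CPM in wild-type marker-low cells (346 UMIs) and 19.3 in knockout cells (46 UMIs), a log2 ratio of -2.26 (-2.75 to -1.82). The ratio was -2.35 in deep cells, -2.98 in the other tagged cells and -1.81 in untreated marker-low cells, where levels were 87.5 and 24.8 CPM. Sin3b fell in knockout cells in the fit over both libraries (adjusted p = 1.72e-20, edgeR's quasi-likelihood test). Which exons the allele removes, and so whether the remaining 3' reads come from intact mRNA, was not examined here. None of the 19 other genes of the SIN3 complex list passed 1.5-fold in either direction, where 2.6% of all genes were higher and 3.38% lower. With shares that low, no result about the complex is read from this count. Sin3a, the paralog of Sin3b, was at 55.6 and 56.4 CPM.

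Outside Sin3b, few genes differed between genotypes in marker-low cells, and lower levels of Slc16a11, Ccl5 and immediate early genes in knockout cells stood out. Of 7396 genes with at least 100 UMIs over both pools, 192 (2.6%) were more than 1.5-fold higher and 250 (3.38%) more than 1.5-fold lower in knockout cells, with a median log2 ratio over all of them of -0.03. In deep cells the numbers were 169 (2.52%) and 207 (3.09%) of 6704. Slc16a11, a transporter of the monocarboxylate family, had 115 UMIs among wild-type and 3 among knockout cells, a log2 ratio of -4.40 (-6.92 to -3.04). The same gene was at 20.7 and 1.37 CPM in the other tagged cells and at 45.8 and 2.92 CPM in untreated marker-low cells. Slc16a11 fell in the fit over both libraries (adjusted p = 3.34e-25, edgeR's quasi-likelihood test), while DESeq2 gave it no adjusted p.

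Ccl5, a chemokine of lymphocytes and activated cells, had 105 UMIs among wild-type and 6 among knockout cells, with 33 UMIs in 1 cell, and a log2 ratio of -3.38 (-4.97 to -2.32). In untreated marker-low cells its ratio was 0.34 (-0.36 to 0.99). Cpa3 was at 32.4 and 10.5 CPM, a log2 ratio of -1.60, and -0.43 in untreated cells. Il18r1, the interleukin-18 receptor chain, was at 25.9 and 9.25 CPM, a log2 ratio of -1.46, with -2.21 in the other tagged cells and -0.78 in untreated marker-low cells. Aldh1a1, a retinal-oxidizing enzyme, had a log2 ratio of -1.55 (-2.35 to -0.87) in marker-low cells, 0.05 in the other tagged cells and 2.06 (1.17 to 3.03) in untreated marker-low cells. Its direction thus turned between the libraries.

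Tob1, an antiproliferative gene, Maf, a transcription factor, and Gm49708 had log2 ratios of -1.41, -1.38 and -1.20 after 5-FU. Of these, Maf was also lower in untreated marker-low cells (-0.86, -1.59 to -0.24), and Tob1 was at 0.09 there. Gm49708 had 4 and 0 UMIs in untreated marker-low cells and was not compared there. The other 4 of the 12 lowest ratios, those of Egr1, Dusp1, Fos and Fosb, are immediate early genes.

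**Figure D3:**
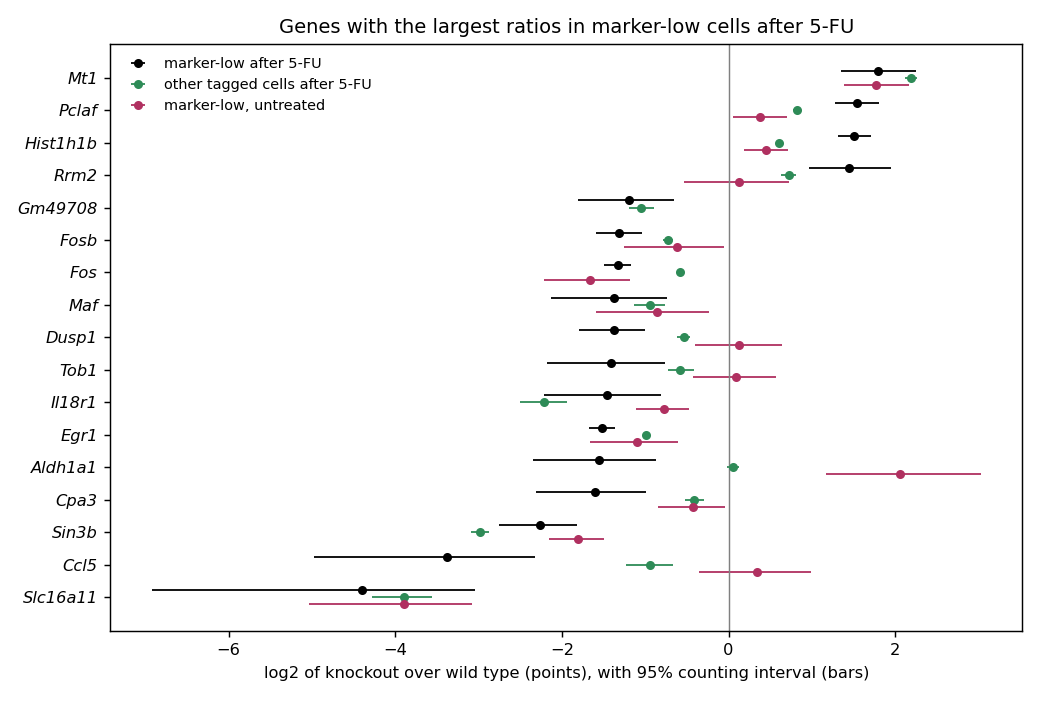
Log2 ratio of knockout over wild type with 95% counting intervals, in marker-low cells after 5-FU (black), other tagged cells after 5-FU (green) and untreated marker-low cells (red), for Sin3b and the genes with the largest ratios; genes with under 20 UMIs are not drawn, nor are the 7 granule genes and Igkc. Slc16a11 and Sin3b lie far left in all 3 sets, and Mt1 far right, while Aldh1a1 changes sides.

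The highest ratios in the other direction came from 2 barcodes. Retnlg, S100a9, S100a8, Ngp, Ltf, Lcn2 and Camp, genes of maturing neutrophils, led the genes higher in knockout marker-low cells. S100a9, a calcium-binding alarmin subunit, had 9 UMIs among wild-type and 1416 among knockout cells, and a single cell held 1276 of them. Retnlg, a resistin-like secreted protein, had 0 and 371 UMIs and was at least 193-fold higher, against a floor of 3 counts in the wild-type pool. A single knockout barcode of 6762 UMIs held 3108 UMIs of the 7 genes (46.0%), and another of 2373 UMIs held 401 (16.9%). Without these 2 barcodes S100a9 had 9 UMIs among wild-type and 7 among knockout cells, a log2 ratio of 0.30 (-1.38 to 1.88), and S100a8 8 and 7 UMIs, a ratio of 0.47 (-1.24 to 2.11). Retnlg, Ngp, Ltf and Camp then had 0 UMIs in knockout cells, and Lcn2 had 4. None of the 773 wild-type and 406 other knockout marker-low cells held more than 2 granule gene UMIs, and 6 wild-type and 20 knockout cells outside the gate held 10 or more. Igkc, an immunoglobulin light chain constant region, had 40 and 146 UMIs with 53 in 1 cell, a log2 ratio of 2.50 (1.99 to 3.05), while deep cells had 1 and 0 UMIs.

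Without these barcodes 182 genes were more than 1.5-fold higher in knockout cells, Mt1, Pclaf, Rrm2 and Hist1h1b among them. Igkc kept its log2 ratio of 2.50 without them. Mt1, a metallothionein that binds zinc and copper, was at 16.7 CPM in wild-type and 58.0 in knockout cells, a log2 ratio of 1.79 (1.35 to 2.25). It was 1.85 in deep cells, 2.19 in the other tagged cells and 1.77 in untreated marker-low cells, and it rose in the fit over both libraries (adjusted p = 1.16e-14, edgeR's quasi-likelihood test). Mtf1, the zinc-sensing factor that activates metallothionein genes, had a log2 ratio of 0.80 (0.34 to 1.28) in marker-low cells after 5-FU and also rose (adjusted p = 2.21e-03, edgeR's quasi-likelihood test). DESeq2 gave neither gene an adjusted p. Pclaf, a clamp-associated factor of replication, was at 49.1 and 143 CPM. Rrm2, the ribonucleotide reductase subunit that limits nucleotide supply, was at 15.1 and 41.2 CPM. Hist1h1b, a linker histone, was at 83.4 and 237 CPM. In untreated marker-low cells the log2 ratios were 0.38 (0.05 to 0.70) for Pclaf, 0.12 (-0.54 to 0.73) for Rrm2 and 0.45 (0.19 to 0.71) for Hist1h1b.

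Immediate early genes, which cells switch on within minutes of a stimulus and which encode AP-1 subunits (Fos, Fosb, Jun, Junb, Jund), the EGR1 factor and feedback regulators, were lower in knockout marker-low cells as a list. Of 19 genes listed, 13 had at least 100 UMIs, all 13 had a ratio below 0, and 11 were lower by more than 1.5-fold, where 3.38% of all genes were. Their median log2 ratio was -0.89, beside -0.03 over all genes, and their summed level was 3217.6 CPM in wild-type and 1623.2 in knockout cells. The median was -0.82 in deep cells, with 10 of 13 lower, and -0.49 when the gate was set on cells thinned to 4000 UMIs. The list had been known to differ between the genotypes in these data, so its direction is not independent support.

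The highest of these genes was Jun, with 626 CPM in wild-type and 299 in knockout cells, a log2 ratio of -1.06 (-1.19 to -0.94). Egr1 was at 481 and 167 CPM (-1.52, -1.68 to -1.36), and Fos at 413 and 164 CPM (-1.33, -1.50 to -1.17). Fosb, at 147 and 58.9 CPM, and Dusp1, a phosphatase that turns off MAP kinases, at 72.9 and 27.8 CPM, had ratios of -1.31 and -1.38. Jund, Junb, Zfp36, Klf2, Klf6 and Btg2 lay between -0.90 and -0.59, while Ier2 (-0.58) and Ier3 (-0.43) did not pass 1.5-fold.

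In the other tagged cells after 5-FU the list's summed ratio was -0.51 (-0.52 to -0.49), against -0.99 (-1.04 to -0.93) in marker-low cells. Wild-type levels differed between the cells while knockout levels were close. Wild-type cells held 3217.6 CPM of the list in the gate and 2327.4 outside it, and knockout cells 1623.2 and 1639.4. At 4000 UMIs per cell, 57.9% of deep wild-type marker-low cells (52.7 to 63.0) had a UMI of 3 or more of Fos, Fosb, Jun, Junb, Egr1 and Dusp1, against 34.7% of knockout ones (28.0 to 42.0). Outside the gate the shares were 46.7% and 36.2%. In untreated marker-low cells the list's summed ratio was -0.43 (-0.51 to -0.34), and Fos, at 34.6 and 10.8 CPM, had a ratio of -1.66.

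**Figure D4:**
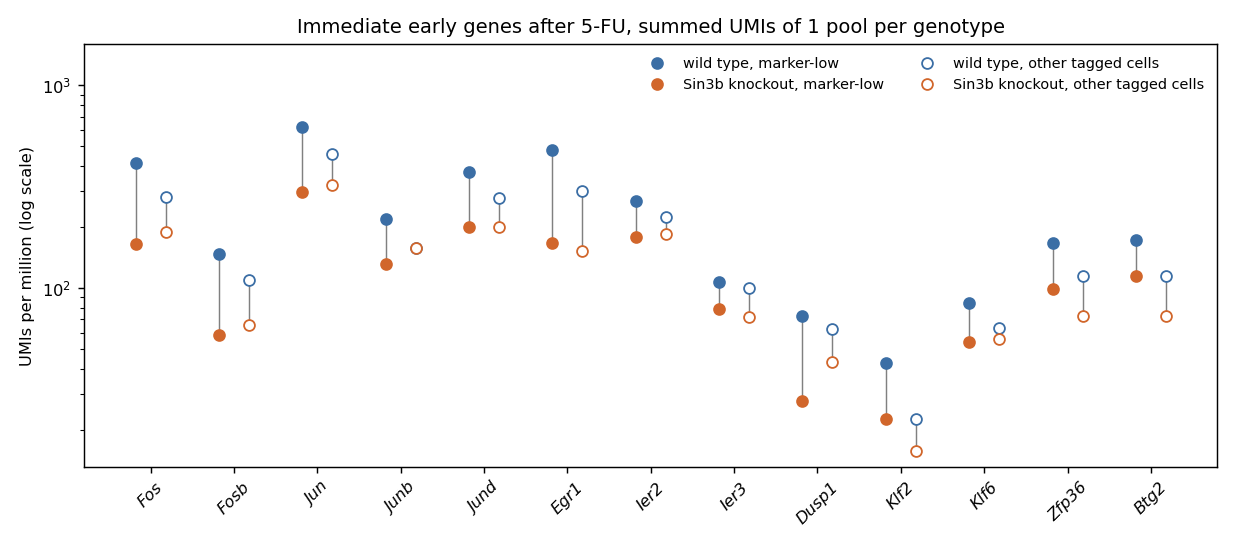
Levels (CPM, log scale) of 13 immediate early genes after 5-FU in wild-type (blue) and knockout (orange) cells, filled points for marker-low and open points for other tagged cells, each 1 pool. The blue point lies above the orange point for all 13 genes in marker-low cells, and the gap is widest for Egr1, Dusp1 and Fos.

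Since 8 genes of this list fell in the fit described below, the promoters of 3 of them are shown from RefSeq (build GRCm38.p6), as the 250 bases before the annotated start in the direction of the gene. Capitals mark TGACG or its reverse complement CGTCA, the core of the cAMP response element to which CREB and AP-1 family factors bind, and the overlapping pair in TGACGTCA counts once. Fos lies at chr12:85473640-85473889 on the plus strand, Fosb at chr7:19310046-19310295 and Dusp1 at chr17:26508473-26508722, both on the minus strand.
Fos: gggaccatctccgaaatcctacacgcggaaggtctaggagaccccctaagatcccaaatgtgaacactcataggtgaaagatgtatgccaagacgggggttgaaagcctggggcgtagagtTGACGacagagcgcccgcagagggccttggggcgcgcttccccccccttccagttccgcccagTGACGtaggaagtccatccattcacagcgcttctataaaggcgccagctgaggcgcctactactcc
Fosb: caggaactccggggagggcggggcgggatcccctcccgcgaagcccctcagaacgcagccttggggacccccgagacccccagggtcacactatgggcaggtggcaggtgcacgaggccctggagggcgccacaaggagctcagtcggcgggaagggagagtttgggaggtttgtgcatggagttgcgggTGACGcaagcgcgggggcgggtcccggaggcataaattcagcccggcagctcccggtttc
Dusp1: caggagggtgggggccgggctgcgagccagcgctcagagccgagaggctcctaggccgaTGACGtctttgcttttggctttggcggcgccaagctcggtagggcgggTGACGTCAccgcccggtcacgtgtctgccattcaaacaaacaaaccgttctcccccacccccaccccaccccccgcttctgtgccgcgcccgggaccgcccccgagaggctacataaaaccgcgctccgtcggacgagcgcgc
The motif was found 2 times before Fos, 1 time before Fosb and 2 times before Dusp1. Of 16 immediate early genes with an entry, 11 held it, against 5347 of 27025 genes (19.8%), and Jun, Jund, Zfp36, Klf6 and Ier3 did not. Of the 8 genes that fell, Fos, Fosb, Junb and Dusp1 held it, Jun and Jund did not, and Egr1 and Ier2 had no entry. The 3 promoters shown, all with the motif, thus do not stand for the 8. A match of letters is a description of these windows and shows no binding.

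Some replication and histone genes were more than 1.5-fold higher in knockout marker-low cells. Of 36 S phase genes with at least 100 UMIs, 13 were more than 1.5-fold higher and 0 lower, where 2.6% of all genes were higher, and the median log2 ratio was 0.29. In deep cells 8 of 36 were higher, where 2.52% of all genes were, and the median was 0.15 over all marker-low cells when cells rather than UMIs were weighted equally. Mcm4, a helicase subunit, was at 51.0 and 90.0 CPM, Mcm5 at 40.5 and 69.4, and Tk1, thymidine kinase, at 14.6 and 36.2. Tyms, thymidylate synthase and the target of the active form of 5-FU, was at 39.1 and 61.4 CPM (log2 ratio 0.65, 0.31 to 0.99). In untreated marker-low cells the median of S phase genes was 0.02, and Tyms was at 0.08.

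Of 17 canonical histone genes, whose RNA is made in S phase, 10 were higher (2.6% of all genes were) and 0 lower, and their summed level was 1535.8 CPM in wild-type and 2823.3 in knockout cells. The summed log2 ratio was 0.88 (0.83 to 0.93), 0.86 in deep cells, 0.39 in the other tagged cells and 0.33 in untreated marker-low cells. The median of the 17 genes, 0.63, was 0.41 with the gate at 4000 UMIs and 0.27 with cells weighted equally. Most canonical histone RNA lacks a poly(A) tail and is captured in part by this method, so these levels do not measure all of it. G2 and mitosis genes differed less, with 5 of 34 higher beside 2.6% of all genes and a median of 0.17, which turned to -0.16 when cells rather than UMIs were weighted equally. Cdca8, a chromosomal passenger subunit, was at 30.8 and 59.7 CPM. Ccnd1, a G1 cyclin, was at 38.1 and 73.6 CPM, the 1 of 6 G1 cyclins and kinases past 1.5-fold. Of 12 genes of pyrimidine metabolism and 5-FU handling, 5 were higher (2.6% of all genes were) and 0 lower (3.38%), with a median of 0.46 after 5-FU and -0.13 in untreated marker-low cells.

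Levels and detection did not give the same order for S phase. At 4000 UMIs per cell, 52.5% of deep wild-type and 43.2% of deep knockout marker-low cells had 5 or more S phase genes, while the summed levels in deep cells were 2269.1 and 2755.7 CPM. No order is read from these shares. In both genotypes the levels of the S phase list lay below those of the other tagged cells, 2777.2 and 3341.9 CPM, and so did the G2 and mitosis list, with 2985.1 and 3457.2 CPM in deep marker-low cells against 4533.8 and 5688.9.

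Few regulators of stem and progenitor cells passed 1.5-fold between genotypes in marker-low cells. Of 25 transcription factors of the list, 3 were lower by more than 1.5-fold (3.38% of all genes were) and 0 higher, and 21 had a ratio below 0, as did 54.1% of all genes, with a median of -0.21. In deep cells 3 of 24 were lower and 17 below 0, as were 3.09% and 51.9% of all genes. Gata2, a stem cell factor, was at 175 and 111 CPM (-0.65, -0.86 to -0.44), and Tal1 at 98.2 and 58.0 CPM (-0.76, -1.05 to -0.47). The other tagged cells had ratios of -0.01 for Gata2 and -0.19 for Tal1, and untreated marker-low cells 0.33 and 0.20. Egr1 was the third. Of 19 cytokine receptors 3 were lower and 0 higher, and in deep cells 1 of 18 was lower.

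Cytokine feedback and interferon genes followed with smaller ratios. All 11 SOCS and JAK-STAT feedback genes had a ratio below 0, as did 54.1% of all genes, with a median of -0.28, and 2 were lower by more than 1.5-fold, as were 3.38% of all genes. Of these, Socs3, an inhibitor of cytokine signalling, was at 33.7 and 19.8 CPM and Pim2, a survival kinase, at 25.1 and 13.0. Of 21 interferon response genes, 4 were lower and 1 higher by more than 1.5-fold, with a median of -0.24, and in deep cells 2 of 19 were lower and 0 higher (3.09% and 2.52% of all genes). Irf1, an interferon-induced factor, was at 71.5 and 42.5 CPM. Of 11 NF-kB genes, 1 was lower, Nfkbiz, at 67.7 and 37.0 CPM. Of 10 class I presentation genes 1 was lower, H2-Q7, at 309 and 187 CPM, and it fell in the fit over both libraries (adjusted p = 1.29e-03, edgeR's quasi-likelihood test) but not by DESeq2 (adjusted p = 0.204).

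Several lists had few or no genes past 1.5-fold, where 2.6% of all genes were higher and 3.38% lower. Of 76 cytoplasmic ribosomal protein genes, 29 ribosome biogenesis genes, 10 genes of the Rb family and DREAM complex and 3 CDK inhibitors, 0 passed 1.5-fold in either direction, with medians of 0.00, 0.09, 0.18 and -0.16. In deep cells 2 of the 10 Rb family and DREAM genes were higher (2.52% of all genes were), and the list's summed ratio was 0.17 (0.08 to 0.27) over all marker-low cells. Of 74 nuclear genes of the respiratory chain 1 was lower, of 13 glycolysis genes 1 was higher, of 7 DNA methylation enzymes 1 was higher, of 8 p53 targets 1 was lower, and of 19 adhesion and homing genes 1 was higher and 1 lower. The 9 LSK and multipotent markers and the 5 lymphoid markers outside the gate had 0 past 1.5-fold, with medians of -0.28 and 0.23. Class II presentation genes had a median of -0.02 over all marker-low cells and -0.33 in deep ones. Mitochondrially encoded respiratory chain genes had a summed ratio of 0.29 (0.28 to 0.30) over all marker-low cells and -0.00 (-0.01 to 0.01) in deep cells. After 5-FU it was thus present with the shallow barcodes and absent without them. In untreated marker-low cells, which had at least 2921 UMIs each, the summed ratio of this list was 0.23 (0.22 to 0.24). The list of other myeloid markers had a summed ratio of 0.86 with the 2 granule-rich barcodes and -0.21 (-0.28 to -0.14) without them.

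**Figure D5:**
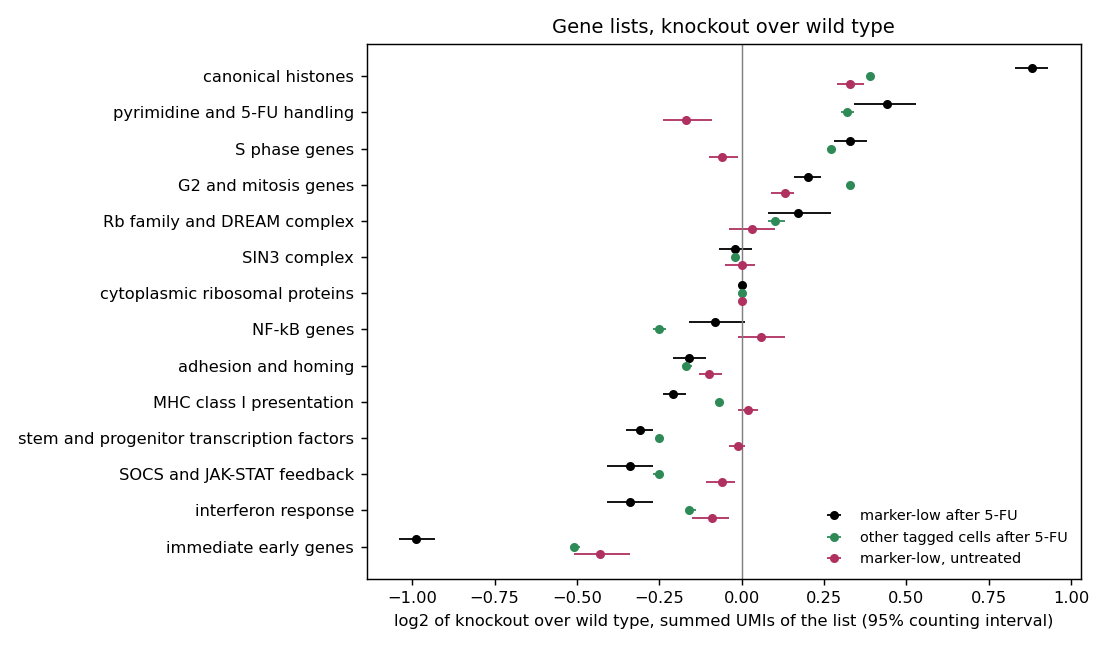
Log2 ratio of knockout over wild type of the summed UMIs of 14 gene lists, with 95% counting intervals, in marker-low cells after 5-FU (black), other tagged cells after 5-FU (green) and untreated marker-low cells (red). Immediate early genes lie lowest and canonical histones highest in marker-low cells after 5-FU, and ribosomal proteins lie at 0 in all 3.

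A fit over both libraries was the only test of genotype, since it took the 5-FU and the untreated marker-low cells of each genotype as 4 pools, with library as a term. Of 11997 genes, 107 (0.892%) rose and 127 (1.06%) fell in knockout cells at an adjusted p under 0.05 by edgeR's quasi-likelihood test. The fit had 1 residual degree of freedom and leaned on a spread shared by all genes. Of the 234 called genes, 214 had the same sign in both libraries and 20 had opposite signs, among them S100a8 and S100a9. DESeq2 called 16 and 11 genes, all 27 of which edgeR also called, Sin3b, Fos, Egr1, Jun and Jund among them. Without the library term 0 genes passed, with 18 and 27 at an unadjusted p under 0.05.

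The 5 smallest adjusted p of genes that fell were of Slc16a11, Sin3b, Auts2, Fos and Egr1, and of genes that rose Agbl4, Zfp981, S100a9, S100a8 and Mt1. Auts2, a neuronal regulator gene, was at 18.4 and 1.68 CPM after 5-FU and at 203 and 64.3 CPM untreated (adjusted p = 7.45e-17, edgeR's quasi-likelihood test), and DESeq2 did not call it (adjusted p = 0.365). Fos had a fitted log2 ratio of -1.41 (adjusted p = 7.04e-15) and Egr1 of -1.39 (adjusted p = 2.95e-14), both by edgeR's quasi-likelihood test. Agbl4 and Zfp981 were called on the untreated library alone, with 9 and 5 UMIs of Agbl4 and none of Zfp981 after 5-FU, so they are no result on marker-low cells after 5-FU.

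By list, 8 of 16 immediate early genes tested fell and 0 rose, namely Fos, Egr1, Jun, Fosb, Jund, Junb, Dusp1 and Ier2, where 1.06% of all genes fell. Of the 8, Dusp1 was lower after 5-FU only, with a log2 ratio of 0.13 (-0.40 to 0.64) in untreated marker-low cells. DESeq2 called 4 of them, Fos, Egr1, Jun and Jund. Of 40 canonical histones, 6 rose and 0 fell, where 0.892% of all genes rose, and DESeq2 called Hist1h2ae. Of the other genes named by list below, DESeq2 called Egr1, Cdk6 and 7 of the mitochondrially encoded genes. Of 42 S phase genes 2 rose, E2f8 and Rrm2, and of 51 G2 and mitosis genes 4 rose, Cdca8, Mki67, Kif11 and Tacc3. Rrm2 had a log2 ratio of 0.12 (-0.54 to 0.73) in untreated marker-low cells. Of 26 stem and progenitor transcription factors 1 fell, Egr1. Of 24 cytokine receptors Il18r1 fell, and of 15 SOCS and JAK-STAT feedback genes Pim1 and Pim2 fell. None of 27 interferon response, 30 ribosome biogenesis, 16 Rb and DREAM or 13 p53 target genes passed. Of 7 G1 cyclins and kinases Ccnd1 and Ccnd3 rose and Cdk6 fell, and Ccnd3 was at 174 and 181 CPM after 5-FU and at 444 and 725 untreated. Of 7 class II genes Cd74 and H2-Aa rose. Cd74 had a log2 ratio of 0.39 over all marker-low cells after 5-FU but of -0.27 (-0.48 to -0.07) in deep ones, at 182 and 150 CPM. H2-Aa was at 92.3 and 93.8 CPM after 5-FU, with a log2 ratio of -0.47 (-0.77 to -0.18) in deep cells, and at 39.0 and 76.0 untreated. Of 13 mitochondrially encoded genes 9 rose, a list whose summed ratio was near 0 in deep cells after 5-FU but 0.23 in untreated marker-low cells.

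The untreated library showed part of these differences. Of 423 genes past 1.5-fold after 5-FU with at least 100 UMIs in both libraries, 302 (71.4%) had the same sign, as did 58.6% of all 7317 genes. Of the 423, 46 were past 1.5-fold in the same direction, and those past it in the other direction were not counted. Of all 9685 genes with at least 100 UMIs in untreated marker-low cells, 210 were more than 1.5-fold higher and 301 lower. Of the 12 lowest ratios, those of Slc16a11, Egr1, Il18r1, Maf, Fos, Cpa3 and Fosb had an interval below 0 in both libraries.

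A few marker-low cells carried genes that mark other sets of cells in these data. At 4000 UMIs per cell, 9.65% of deep wild-type marker-low cells (6.85 to 13.1) had a UMI of Slc16a11, against 6.29% of the other deep wild-type cells and 0.526% of deep knockout marker-low cells. A UMI of Cldn5, Cyp26b1 or Cxcl10 was found in 0.526% of knockout marker-low cells (0.0133 to 2.9), against 4.54% of the other knockout cells (3.85 to 5.31), and in 0.536% of wild-type marker-low cells (0.065 to 1.92). Knockout stem gate cells, 80.9% of tagged knockout cells, held Cldn5 at 7.96 and Cyp26b1 at 4.63 CPM. The contrast with other knockout cells thus follows in part from the gate. At least 2 of H2-Aa, H2-Eb1 and Cd74 were found in 8.85% of wild-type and 4.74% of knockout marker-low cells, with intervals of 6.17 to 12.2 and 2.19 to 8.8. The other deep cells had 6.2% and 5.86%. Without thinning, the shares in deep marker-low cells were 12.3% and 12.6%. Nr4a1 together with Gem was seen in 2 of 373 and 2 of 190 cells.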

How the data were processed

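Single-cell RNA of LSK cells was deposited by the authors as raw UMI counts per gene and barcode from Cell Ranger, with hashtag counts beside them, and no normalization. Per the labels the authors also used Seurat, DESeq2 and build mm9. The header of the 5-FU matrix names Cell Ranger 6.0.1, and that of the untreated matrix Cell Ranger 4. The part of this in differences between the libraries was not tested. The untreated matrix listed all barcodes, and the 23931 with at least 2921 UMIs, a limit set from its deepest barcodes, were used as cells. It had no gene names of its own and was read in the gene order of the 5-FU matrix, which was checked by the correlation of log gene sums across genes (r = 0.9259, at most 0.3918 with shifted gene order). The libraries shared 76 barcodes (0.596% of the 5-FU ones). The 5-FU matrix held 12753 barcodes and 141497146 UMIs. Hashtags were called with HTODemux (Seurat 5.3.0, quantile 0.99), and double-tagged barcodes were left out; no other doublet caller was run.

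Members and gene lists were chosen with earlier results of these data known. UMIs were summed over members of each genotype and library, giving 4 pools of 3705569, 2377353, 8185409 and 3422290 UMIs (5-FU wild type and knockout, then untreated), and scaled to CPM. Ratios used a pseudocount of 0.5 counts. Their 95% intervals, and those of shares (exact binomial), cover counting error only. Genes needed 100 UMIs over both pools, and a fold of 1.5 set counts of genes. Named were Sin3b, the 12 highest and 12 lowest ratios with an interval without 0, the 10 highest and 10 lowest genes of members against other cells, list members past 1.5-fold, and the 5 smallest adjusted p each way. With 1 pool of 2 mice per genotype, no p was computed within a library. The fit over both libraries used edgeR 4.0.16 (quasi-likelihood, TMM, Benjamini-Hochberg adjustment, R 4.3.3), with DESeq2 1.42.0 as an alternative. On simulated counts of 11873 genes for this fit, 84 of 92 genes changed 4-fold and 68 of 108 changed 2-fold were called, as were 11 unchanged genes. The simulation gave all genes the same spread and the same folds in both libraries. It held no library effect and no outlying barcode, so it does not describe calls led by single barcodes. Other steps used Python 3.11.15. Promoters came from RefSeq, GRCm38.p6, which is another build than the labels name, and were matched by symbol. Alternatives were another hashtag rule, trimmed tails, a gate at equal depth, a stricter gate, other scalings and count filters. The deep cells alone, the pools without 2 barcodes rich in granule genes, and a robust dispersion prior were added after seeing the data.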

Additional observations from a re-analysis of the deposited data

Results flagged for a closer look

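Barcodes that HTODemux assigned to no hashtag were used in no comparison. Of these 3290 barcodes, 1431 met the marker-low conditions, a share of 43.5% (95% exact binomial interval 41.8 to 45.2), above the 14.6% and 10.9% of tagged wild-type and knockout cells. Their median depth was 1946 UMIs, and among those with at least 4000 UMIs 18.4% were marker-low. Sin3b was at 29.3 CPM in these untagged marker-low barcodes, between the wild-type and knockout pools. Of 434 barcodes with both tags, 13 (3.0%) were marker-low.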

How the results depend on the processing

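The difference in the share of marker-low cells (knockout minus wild type, -3.63 percentage points) turned to 0.0566 with a tag holding 80% of hashtag UMIs and to 0.063 where no gate gene was allowed, and was -1.22 with the gate at 4000 UMIs. The Sin3b ratio (-2.26) was -3.11 at 4000 UMIs and -2.79 with no gate gene. Genes higher past 1.5-fold (192) became 11 with no gate gene, 2477 with no filter on low counts and 25 at 400 or more UMIs. Genes lower (250) became 166 with the 80% tag rule, 462 at 4000 UMIs, 86 with no gate gene, 705 with the mean of per-cell CPM, 3154 with no filter and 32 at 400 or more UMIs. The median of G2 and mitosis genes (0.17) turned to -0.16 with the mean of per-cell CPM. With the gate at 4000 UMIs, the median of immediate early genes went from -0.89 to -0.49. In the fit, 107 genes rose and 127 fell, against 16 and 11 with DESeq2, 50 and 51 with library-size scaling, and 0 and 0 without the library term (edgeR, 18 and 27 at an unadjusted p under 0.05). The no-filter and 400-UMI counts differ in how many genes entered. The count minimum was applied to the pools of each setting, so settings with other members also differ in genes entered. With deep cells alone 6704 genes entered, against 7396. The pools with no gate gene held 119 wild-type and 86 knockout cells. Those of the gate at 4000 UMIs held 1727 and 1240 cells. DESeq2 gave no adjusted p to part of the genes that edgeR called. The part of these differences in the changes, and the cause of the rest, was not tested. The library term sets knockout against wild type within each library. Each genotype rests on 1 pool, so no spread between mice is known, and only 563 of 1181 marker-low cells had 4000 or more UMIs.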
